A study of Mus musculus with 12 samples.

Results

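Antibody light chains are encoded by the kappa locus, with 1 constant gene (Igkc), and by the lambda locus, whose constant genes Iglc1, Iglc2 and Iglc3 and variable genes Iglv1, Iglv2 and Iglv3 were examined together with Igkc. These 7 genes were taken by name from a table of 55414 genes measured by RNA-seq in 12 whole mouse lungs on day 4 after exposure to lipopolysaccharide (LPS), a bacterial outer membrane component that inflames the airspaces. The study asked what IL-10 made by B cells does while the injured lung recovers. All 12 mice received LPS, so no lung without LPS entered the comparison. IL-10 B-KO mice (6 lungs) carried floxed Il10 alleles and mb1-Cre, on a C57BL/6J background. Mb1 is another name of Cd79a, the signalling subunit of the B cell receptor, so the Cre is active from early B cell development on. IL-10 B-WT mice (6 lungs) were described as wild type, and whether they carried the Cre or the floxed alleles, and the age of the mice, were not given in the labels. The replicates were separate mice.

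Each B cell assembles its light chain gene by joining 1 variable segment to 1 joining segment, which is then spliced to a constant gene. Kappa is usually rearranged first, and lambda mainly in cells whose kappa rearrangement fails, so mouse antibodies carry far more kappa than lambda. In the mouse, Iglv1 is usually joined to Iglc3 or Iglc1, whereas Iglv2 is usually joined to Iglc2. B cells hold moderate amounts of these transcripts, and plasma cells, the cells that secrete antibody, hold very large amounts. In whole lung RNA, fewer cells of a type and less RNA per cell cannot be told apart.

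Igkc lies on chromosome 6 (GRCm38, chr6:70726435-70726966, + strand). All 6 lambda genes lie on the - strand of chromosome 16, in the order of transcription Iglv2 (chr16:19260401-19260859), Iglv3 (chr16:19241207-19241690), Iglc2 (chr16:19198396-19200351), Iglv1 (chr16:19085017-19085500), Iglc3 (chr16:19065230-19065681) and Iglc1 (chr16:19061618-19062071). The sequences shown are the first 300 coding bases of the exon that carries each constant domain, from GENCODE M21, because how alike the genes are bears on how far their levels can be told apart. They lie at chr6:70726435-70726734 for Igkc and, on chromosome 16, at chr16:19198554-19198853 for Iglc2, chr16:19065382-19065681 for Iglc3 and chr16:19061772-19062071 for Iglc1. Capitals in Iglc3 and Iglc1 mark bases that differ from Iglc2.
Igkc: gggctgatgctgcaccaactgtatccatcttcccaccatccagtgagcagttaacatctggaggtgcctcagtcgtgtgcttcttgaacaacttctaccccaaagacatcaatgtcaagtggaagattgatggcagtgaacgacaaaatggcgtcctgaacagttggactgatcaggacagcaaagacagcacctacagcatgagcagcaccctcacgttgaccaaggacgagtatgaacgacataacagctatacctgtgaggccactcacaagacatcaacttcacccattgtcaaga
Iglc2: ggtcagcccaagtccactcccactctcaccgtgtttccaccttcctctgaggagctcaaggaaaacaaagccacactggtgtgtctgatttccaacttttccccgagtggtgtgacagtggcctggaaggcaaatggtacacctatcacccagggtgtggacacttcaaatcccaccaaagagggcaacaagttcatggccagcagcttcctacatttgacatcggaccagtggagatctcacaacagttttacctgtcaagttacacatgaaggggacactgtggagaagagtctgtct
Iglc3: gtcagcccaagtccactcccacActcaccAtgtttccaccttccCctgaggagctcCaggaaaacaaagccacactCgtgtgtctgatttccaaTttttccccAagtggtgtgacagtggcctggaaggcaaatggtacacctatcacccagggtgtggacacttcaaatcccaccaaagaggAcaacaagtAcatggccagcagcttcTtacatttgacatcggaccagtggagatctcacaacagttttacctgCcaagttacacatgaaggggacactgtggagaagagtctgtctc
Iglc1: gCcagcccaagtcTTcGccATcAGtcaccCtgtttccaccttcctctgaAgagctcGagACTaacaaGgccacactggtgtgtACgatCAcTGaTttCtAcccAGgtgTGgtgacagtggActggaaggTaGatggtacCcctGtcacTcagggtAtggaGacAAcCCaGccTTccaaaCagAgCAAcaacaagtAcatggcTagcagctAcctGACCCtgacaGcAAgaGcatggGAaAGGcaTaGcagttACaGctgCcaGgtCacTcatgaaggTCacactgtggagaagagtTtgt

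Iglc2 and Iglc3 were identical at 96.5% of 314 aligned coding bases, with 11 differences, and their transcripts shared an unbroken run of 79 bases. Of all windows of 25 bases, 30.0% of those in Iglc2 were also in Iglc3. Reads that lie wholly within such a stretch fit both genes, so the split between Iglc2 and Iglc3 is uncertain and their sum is better determined. How many reads this concerns depends on read length and was not examined. Iglc1 was identical to Iglc2 at 74.8% and to Iglc3 at 75.4% of aligned bases and shared no window of 25 bases with either. Igkc was identical to the lambda constant genes at 55.1% to 57.9% of aligned bases and likewise shared no such window.

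Among the variable genes, Iglv1 and Iglv2 were the near copies, with 97.0% identity and 9 differences over 305 bases. Their transcripts shared a run of 104 bases, and 42.5% of the windows of 25 bases in Iglv1 were also in Iglv2. Iglv3 was identical to Iglv1 at only 55.1% of bases. The first 300 bases of the main coding exon of the near copies are shown, at chr16:19085022-19085321 for Iglv1 and chr16:19260406-19260705 for Iglv2, both on the - strand, with capitals in Iglv2 where it differs from Iglv1.
Iglv1: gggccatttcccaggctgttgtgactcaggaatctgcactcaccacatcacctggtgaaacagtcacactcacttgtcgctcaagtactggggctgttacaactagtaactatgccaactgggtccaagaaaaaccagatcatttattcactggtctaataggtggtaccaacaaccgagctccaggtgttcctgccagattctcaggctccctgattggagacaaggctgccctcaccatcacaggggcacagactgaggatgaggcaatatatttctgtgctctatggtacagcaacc
Iglv2: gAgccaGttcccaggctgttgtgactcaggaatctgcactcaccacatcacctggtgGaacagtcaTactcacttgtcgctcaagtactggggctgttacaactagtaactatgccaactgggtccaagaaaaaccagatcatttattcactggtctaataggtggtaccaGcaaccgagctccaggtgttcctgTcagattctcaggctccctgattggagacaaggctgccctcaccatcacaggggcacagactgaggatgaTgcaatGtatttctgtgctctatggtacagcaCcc

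Other annotated RNAs overlap these genes. The long noncoding RNA Gm30211 spans Igkc on the same strand and was listed at 0 to 6.32 TPM. The antisense RNA 2010309G21Rik spans Iglc1, Iglc3 and Iglv1 and was listed at 0 to 0.49 TPM. The joining segment Iglj2 lies within the span of Iglc2 and was listed at 0 TPM. Overlap was examined over whole gene spans and not over exons. Whether the libraries kept strand was not given in the sources used here. It is therefore not known whether reads of the antisense RNA and of the lambda genes could be confused.

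Levels are in TPM, transcript abundances scaled to a common library total and corrected for transcript length. Lambda variable and constant genes are parts of the same transcripts, yet their TPM did not keep 1 ratio across lungs. Comparisons of level between these genes therefore hold for what the table assigned. The number of reads behind a TPM value is unknown, so no counting error can be attached to values near 0. Lung markers were high in all 12 libraries, their sum over 8 genes spanning 31010 to 103121 TPM for IL-10 B-WT and 21362 to 112093 TPM for IL-10 B-KO. Il10, the targeted gene, ranged from 0 to 0.88 TPM among IL-10 B-WT and from 0 to 0.58 TPM among IL-10 B-KO lungs (exact permutation test, two-sided, p = 0.745). These levels did not separate the labels. Il10 was under 1 TPM in every lung, so the test says little about whether it differed. The study itself reported less IL-10 mRNA and protein in the lungs of IL-10 B-KO mice after LPS. Some libraries stood apart. IL-10 B-WT replicate 2 held 15.1% of its TPM in 432 immunoglobulin genes, against 0.244% to 2.15% in the other IL-10 B-WT lungs, and also held the lymph node vessel gene Glycam1 at 140 TPM, against at most 0.97 TPM in any other lung. IL-10 B-KO replicates 2 and 6 held some B cell transcripts at levels within or near the IL-10 B-WT range. An example is Ms4a1, which encodes CD20, at 4.71 and 3.69 TPM. It was at 0.08 to 0.13 TPM in the other 4 IL-10 B-KO lungs and at 2.64 to 63.5 TPM across the IL-10 B-WT group. Cd79a, in contrast, was at 4.35 and 5.73 TPM in replicates 2 and 6, below its lowest IL-10 B-WT level of 15.3 TPM.

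Igkc was the most abundant of the 7 genes in every one of the 12 lungs. In IL-10 B-WT lungs its level was 713 TPM at the lowest, 3651 TPM at the median and 30371 TPM at the highest, the last in replicate 2. In IL-10 B-KO lungs it was 2.24, 217, 1.40, 1.55, 1.12 and 147 TPM in replicates 1 to 6. No IL-10 B-KO lung reached the lowest IL-10 B-WT lung, which exceeded the highest IL-10 B-KO lung 3.29 times. The mean was 7653 ± 11217 TPM (SD, n = 6) against 61.6 ± 95.6 TPM (SD, n = 6). On the log2(TPM + 1) scale, the difference of IL-10 B-KO minus IL-10 B-WT was -8.55 (SE 1.28, limma adjusted p = 0.0125, exact permutation p = 0.00216, the smallest that 924 arrangements allow).

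The lambda constant genes were far less abundant. Iglc2 was at 31.7 TPM at the lowest, 115 TPM at the median and 473 TPM at the highest in IL-10 B-WT lungs. In IL-10 B-KO lungs, replicates 2 and 6 held 44.4 and 24.0 TPM, and the other 4 held 0.29 to 0.75 TPM. The groups therefore overlapped, by 1 lung, since IL-10 B-KO replicate 2 lay above IL-10 B-WT replicate 1. The log2 difference was -4.77 (SE 0.97, limma adjusted p = 0.0478, exact permutation p = 0.00433).

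Iglc3 was at 6.74 TPM at the lowest, 40.9 TPM at the median and 155 TPM at the highest in IL-10 B-WT lungs. IL-10 B-KO replicates 2 and 6 held 17.1 and 14.8 TPM of it, and the other 4 held 0 to 0.30 TPM. Both of those lungs exceeded IL-10 B-WT replicate 5. The log2 difference of -3.86 (SE 0.89) did not pass the limma test over all genes (adjusted p = 0.0850, exact permutation p = 0.00866).

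Iglc1 was listed at or near 0 in most lungs of both genotypes. It was listed at 0 in 4 of 6 IL-10 B-WT lungs, including replicate 2, in which all other immunoglobulin genes of this set were highest, and at 5.15 and 3.69 TPM in replicates 1 and 6. Among IL-10 B-KO lungs, 3 were listed at 0 and the others held 6.43, 0.30 and 0.76 TPM. The highest value of all 12 lungs was thus in IL-10 B-KO replicate 2. Iglc1 reached 1 TPM in only 3 lungs and was left out of the test over all genes. Its mean log2 difference was -0.13 (exact permutation p = 1), a value that turned to 0.24 without IL-10 B-WT replicate 1, so no direction is given. The 4 IL-10 B-WT lungs with Iglc1 at 0 held 182 to 6747 TPM of Iglv1, which usually joins Iglc3 or Iglc1. Whether reads of Iglc1 were counted elsewhere or lost cannot be seen in TPM, so its 0 values, and every lambda constant sum that includes it, hold for what the table assigned. The fourth lambda constant gene, Iglc4, and all 10 kappa and lambda joining segments examined were listed at 0 in all 12 lungs. Each light chain transcript carries 1 joining segment and Igkc was above 0 in every lung. The 0 values of the segments therefore do not show that they were unused.

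Iglv1 was the second most abundant of the set in 5 of 6 IL-10 B-WT lungs. Its levels there were 72.8, 6747, 3006, 182, 479 and 159 TPM in replicates 1 to 6, a range of 92.7 times. In IL-10 B-KO lungs it was at 10.3 and 8.17 TPM in replicates 2 and 6 and at 0 to 0.69 TPM in the others. The groups did not overlap, and the lowest IL-10 B-WT lung exceeded the highest IL-10 B-KO lung 7.09 times. The log2 difference was -7.74 (SE 1.07, limma adjusted p = 0.0111, exact permutation p = 0.00216).

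For its near copy Iglv2, IL-10 B-WT replicates 1 to 6 gave 3.42, 351, 4.84, 22.5, 17.9 and 44.1 TPM. It was listed at 0 in all 6 IL-10 B-KO lungs, including replicates 2 and 6, where Iglv1 was detected, and no fold is given. The limma adjusted p was 0.0236 and the exact permutation p 0.00216. Because reads that fit both Iglv1 and Iglv2 may be counted to either, the 0 values hold for what the table assigned to Iglv2.

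Iglv3, the variable gene least like the others, was at 1.73 TPM at the lowest, 5.89 TPM at the median and 72.7 TPM at the highest in IL-10 B-WT lungs. In IL-10 B-KO lungs, it was listed at 0 in 3 and was at 2.75, 0.89 and 1.13 TPM in replicates 2, 3 and 6. Replicate 2 lay above IL-10 B-WT replicates 1 and 6. The log2 difference of -2.49 (SE 0.69) did not pass the test (limma adjusted p = 0.168, exact permutation p = 0.00649).

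**Figure D1:**
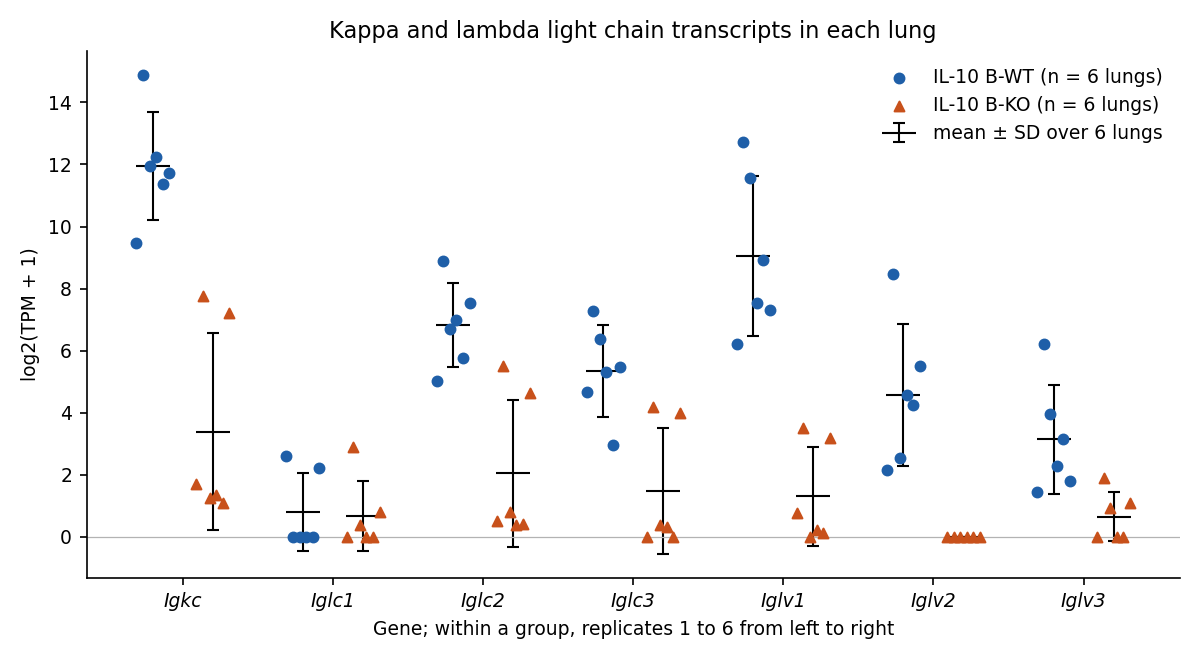
Level of each gene in each lung as log2(TPM + 1), with IL-10 B-WT lungs as circles and IL-10 B-KO lungs as triangles in the order of their replicate numbers, and bars for the mean ± SD over 6 lungs. Igkc is the highest gene of both genotypes, Iglv2 lies at 0 in all 6 IL-10 B-KO lungs, and IL-10 B-KO replicates 2 and 6 lie above the other 4 for Igkc, Iglc2, Iglc3 and Iglv1.

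Of the 7 genes, 4 passed the test over all genes (adjusted p at most 0.05 and a log2 difference of at least 1 in size), all lower in IL-10 B-KO lungs. Of the 15148 genes tested, 0.469% passed in that direction, and 0.0264% passed in the other, in which no member did. For 3 of the 7, Igkc, Iglv1 and Iglv2, every IL-10 B-KO lung lay below every IL-10 B-WT lung, as was so for 0.924% of genes tested. The test kept genes with at least 1 TPM in at least 6 lungs. Iglv2 met this through its 6 IL-10 B-WT lungs alone, and Iglc2, Iglc3, Iglv1 and Iglv3 reached 1 TPM in all IL-10 B-WT lungs but in only 2 IL-10 B-KO lungs, so these 5 entered the test through their IL-10 B-WT lungs and would have been left out had they been as low there. The count of calls is therefore not evidence about the set. The calls of Igkc and Iglv1 held when any 1 lung was left out (adjusted p up to 0.0463 and 0.0404). Without IL-10 B-KO replicates 2 and 6, the log2 differences were -10.59 for Igkc, -6.29 for Iglc2, -5.17 for Iglc3 and -8.76 for Iglv1, with adjusted p from 5.77e-05 to 0.00635, and without IL-10 B-WT replicate 2 they were -7.96, -4.36, -3.48 and -7.00.

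The calls of the remaining genes depended on single lungs. Iglc2 lost its call without any 1 of IL-10 B-WT replicates 2 to 6 or IL-10 B-KO replicates 1, 3, 4 and 5 (adjusted p 0.0929 to 0.131). Leaving out IL-10 B-KO replicates 2 and 6 together ended the call of Iglv2 (adjusted p = 0.0866). Iglv2 also lost its call without any 1 of IL-10 B-WT replicates 4, 5 and 6 or IL-10 B-KO replicates 1, 3, 4, 5 and 6 (adjusted p 0.0511 to 0.0689). Iglc3 gained a call without IL-10 B-WT replicate 1 (adjusted p = 0.0393) or IL-10 B-KO replicate 2 (adjusted p = 0.0298), and Iglv3 without IL-10 B-WT replicate 1 (adjusted p = 0.0392).

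Kappa and lambda constant genes differed between the genotypes by unequal amounts. Igkc exceeded the sum of Iglc1, Iglc2 and Iglc3 by 11.6, 48.4, 21.3, 29.7, 44.6 and 14.6 times in IL-10 B-WT replicates 1 to 6. In IL-10 B-KO replicates 1 to 6, it did so by 5.21, 3.19, 1.04, 2.87, 3.29 and 3.71 times. The ranges did not overlap. As a share of light chain constant TPM, kappa made up 95.6% ± 2.38 (SD, n = 6, range 92.1% to 98.0%) in IL-10 B-WT lungs and 73.4% ± 11.5 (SD, n = 6, range 50.9% to 83.9%) in IL-10 B-KO lungs.

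This share rested on very different amounts of transcript. In IL-10 B-KO replicates 1, 3, 4 and 5, the 4 constant genes together came to 1.46 to 2.75 TPM, against 775 to 30998 TPM in each IL-10 B-WT lung. The lowest kappa share, 50.9% in IL-10 B-KO replicate 3, came from 1.40 TPM of Igkc and 1.35 TPM of lambda. In IL-10 B-KO replicates 2 and 6, the sum was 285 and 186 TPM, and the kappa shares were 76.1% and 78.8%, also below the lowest IL-10 B-WT lung. IL-10 B-KO replicate 2 held 67.9 TPM of lambda constant transcript, slightly more than IL-10 B-WT replicates 1 (61.4 TPM) and 5 (59.7 TPM). At that level it held 217 TPM of Igkc, where those lungs held 713 and 2660.2 TPM.

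The ratio of Igkc to each lambda constant gene was tested within lungs, as log2 of (Igkc + 1)/(lambda gene + 1), by exact permutation of the lungs with adjustment over 3 ratios. The log2 ratio of Igkc to Iglc2 was 5.13 ± 0.69 (SD, n = 6) for IL-10 B-WT and 1.35 ± 0.86 (SD, n = 6) for IL-10 B-KO lungs, a difference of -3.78 (adjusted exact permutation p = 0.00216). For Iglc3 the difference was -4.69 and for Iglc1 -8.42, with the same p, the smallest possible. Since Iglc1 was at or near 0 in both genotypes, its ratio follows Igkc alone. Adding 1 TPM draws ratios of low genes to 1, and the differences moved with that amount. With 0.01 TPM in its place, the difference was smaller for Iglc2, at -3.11 (adjusted exact permutation p = 0.00649), and for Iglc3, at -2.26, no longer past the threshold (adjusted exact permutation p = 0.0714), and larger for Iglc1, at -9.54 (adjusted exact permutation p = 0.0130).

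**Figure D2:**
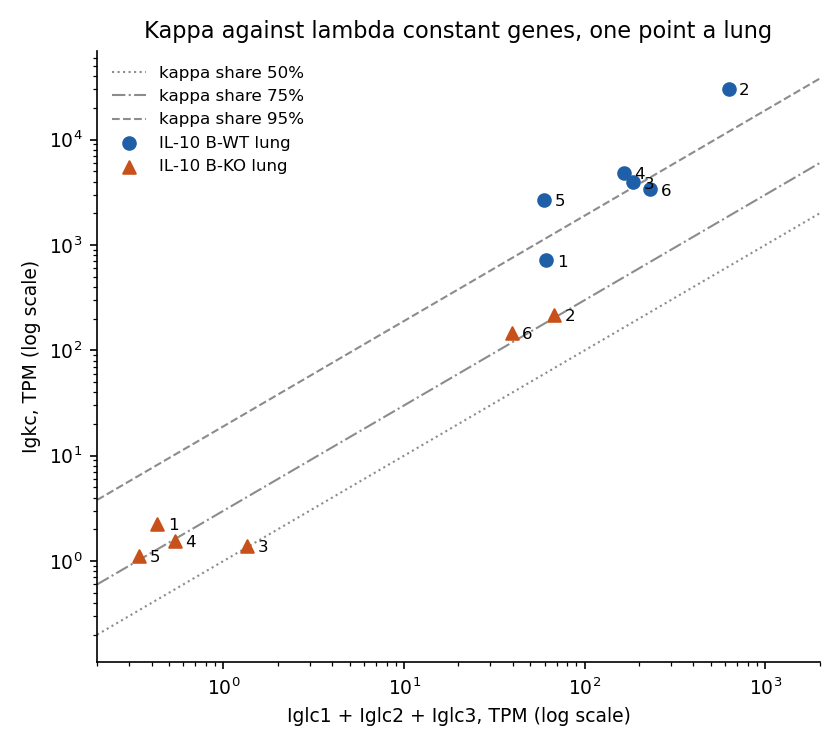
Igkc against the sum of Iglc1, Iglc2 and Iglc3 in each lung, both in TPM on log scales, with replicate numbers beside the points and lines for kappa shares of 50%, 75% and 95%. All 6 IL-10 B-WT lungs lie near or above the 95% line, at shares of 92.1% to 98.0%, and IL-10 B-KO lungs lie between the 50% line and a share of 83.9%, replicates 2 and 6 included.

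Counting lambda by its variable genes gave another picture. The sum of Iglv1, Iglv2 and Iglv3, set against Igkc, made up these shares of their joint TPM: for IL-10 B-WT replicates 1 to 6, 9.85%, 19.1%, 43.4%, 4.11%, 15.9% and 5.75%. In IL-10 B-KO replicates 1 to 6, it made up 23.5%, 5.67%, 38.9%, 9.88%, 8.20% and 5.96%. The groups overlapped over nearly their whole range, and the mean kappa share measured this way was 83.6% for IL-10 B-WT against 84.6% for IL-10 B-KO lungs, a difference of 1.01 percentage points where the constant genes gave -22.2. Against the summed kappa variable genes, the lambda variable genes came to 3.47% to 35.0% of variable TPM among IL-10 B-WT and 4.93% to 37.2% among IL-10 B-KO lungs. In IL-10 B-KO replicates 1, 3, 4 and 5, the lambda variable genes summed to only 0.10 to 0.89 TPM. Shares in those lungs, and the IL-10 B-KO mean, therefore rest largely on values near 0. Replicates 2 and 6 held 13.0 and 9.30 TPM. Within that limit, the lower kappa share in IL-10 B-KO lungs was seen with the lambda constant genes and not with the lambda variable genes.

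**Figure D3:**
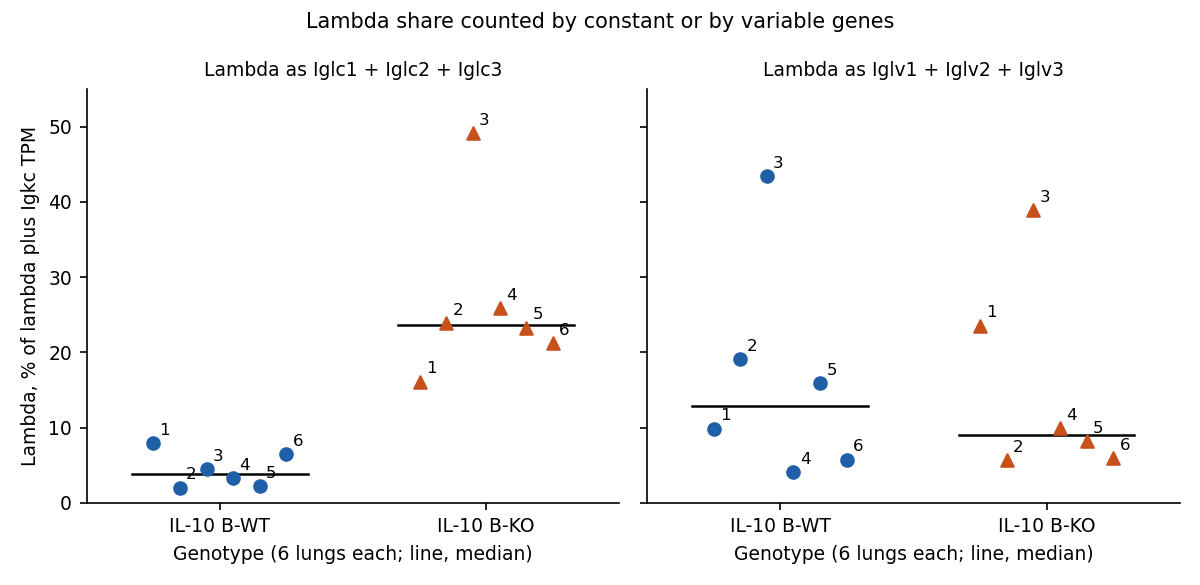
Lambda as a percentage of lambda plus Igkc TPM in each lung, with lambda taken as the 3 constant genes (left) or the 3 variable genes (right), replicate numbers beside the points and lines for the median of 6 lungs. Genotypes separate on the left, with medians of 3.87% and 23.6%, and overlap on the right, with medians of 12.9% and 9.04%.

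Variable and constant genes of the lambda locus did not keep 1 ratio. The 3 variable genes summed to 1.27, 11.4, 16.4, 1.27, 8.45 and 0.89 times the 3 constant genes in IL-10 B-WT replicates 1 to 6. In IL-10 B-KO lungs, this ratio was 1.60 in replicate 1, from 0.69 and 0.43 TPM, and 0.19 to 0.66 in the other 5. Iglv1 exceeded the sum of Iglc1 and Iglc3, its usual partners, by 2.45 to 71.1 times in IL-10 B-WT lungs. In the 4 IL-10 B-KO lungs in which those partners were above 0, Iglv1 came to 0 to 0.68 times their sum. Iglv2 and Iglv3 together came to 0.16 to 0.90 times Iglc2, the usual partner of Iglv2, in IL-10 B-WT lungs. Among IL-10 B-KO lungs they came to 0 to 1.19 times Iglc2. Kappa behaved otherwise, with summed kappa variable genes at 0.81 to 1.83 times Igkc among IL-10 B-WT and 0.76 to 2.34 times among IL-10 B-KO lungs, ranges that overlapped.

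Within the lambda constant genes, Iglc2 held 51.6% to 88.7% of their TPM among IL-10 B-WT and 53.7% to 100% among IL-10 B-KO lungs. Iglc3 held 11.3% to 44.0% and 0% to 46.3%. The ranges overlapped for both genes, which, as near copies, are uncertain one by one. Within the lambda variable genes, Iglv1 held 77.3% to 99.4% among IL-10 B-WT and 0% to 100% among IL-10 B-KO lungs, which overlapped.

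Heavy chains pair with light chains in an antibody, and their constant genes give the class. Of 9 genes listed (8 heavy constant genes and Jchain, which links IgA and IgM units and is made by plasma cells), 7 were tested, 4 were called lower and none higher in IL-10 B-KO lungs, beside 0.469% and 0.0264% of all genes tested. The 4 were Igha, the IgA constant gene (log2 difference -9.21, limma adjusted p = 0.000397), Ighg2b (-7.26), Ighg2c (-6.76) and Jchain (-7.60). Their levels in the groups did not overlap, as for 0.924% of genes tested. None of the 4 reached 1 TPM in 6 IL-10 B-KO lungs, so all were tested through their IL-10 B-WT lungs, as were most light chain genes. Jchain spanned 32.0 to 2170 TPM among IL-10 B-WT and 0.03 to 2.96 TPM among IL-10 B-KO lungs. Ighm, the IgM constant gene made by B cells from an early stage, was at 39.1 to 622 TPM and 12.3 to 69.6 TPM (log2 difference -1.81, limma adjusted p = 0.285) and Ighd, the IgD constant gene of mature naive B cells, at 21.6 to 273 TPM and 0.12 to 37.5 TPM (-3.58, limma adjusted p = 0.130).

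The balance of light to heavy chain transcripts also varied. Summed light chain constant genes came to 0.97 to 1.69 times the summed heavy constant genes in IL-10 B-WT lungs. In IL-10 B-KO replicates 2 and 6, they came to 2.32 and 1.86 times, above every IL-10 B-WT lung. In the other 4 IL-10 B-KO lungs they came to 0.045 to 0.217 times, below every IL-10 B-WT lung. In those 4 lungs, Ighm made up 90.1% to 97.3% of heavy constant TPM, at 12.3 to 54.6 TPM, beside 1.12 to 2.24 TPM of Igkc. In IL-10 B-KO replicates 2 and 6 Ighm made up 56.6% and 50.8%, and in IL-10 B-WT lungs 1.88% to 24.9%.

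B cell genes were compared in the same lungs. Of 14 genes of the B cell receptor complex and other B cell markers, all were tested, 1 was called lower and none higher in IL-10 B-KO lungs. Of all genes tested, 0.469% were called lower and 0.0264% higher. The 1 was Cd79a, which also carries the Cre in its locus (limma adjusted p = 0.0222). It was at 15.3 to 259 TPM in IL-10 B-WT and 0 to 5.73 TPM in IL-10 B-KO lungs. Cd79a did not reach 1 TPM in 6 IL-10 B-KO lungs, so it was tested through its IL-10 B-WT lungs. The median log2 difference over the list was -1.54, beside 0.10 over all genes tested, and the summed level was 78.4 to 1254 TPM in IL-10 B-WT and 76.8 to 150 TPM in IL-10 B-KO lungs. That sum includes Cd72, at 6.99 to 117 TPM in IL-10 B-WT and 25.8 to 96.2 TPM in IL-10 B-KO lungs. Its overlap between the genotypes therefore says little about the less abundant markers. Cd79b, the partner of Cd79a, reached 34.0 TPM in IL-10 B-KO replicate 2 and 21.3 TPM in replicate 6, inside the IL-10 B-WT range of 13.1 to 214 TPM, and at 3.23 to 6.82 TPM in the other 4. Ms4a1 was not called (limma adjusted p = 0.298), nor was Cd22, an inhibitory receptor (0.381). Cd79a was at 0 in 3 of the 6 IL-10 B-KO lungs.

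Ratios of light chain to B cell transcripts depended on the B cell gene. Igkc was at 32.3 to 203 times Cd79b in IL-10 B-WT lungs, at 6.38 and 6.88 times in IL-10 B-KO replicates 2 and 6, and at 0.28 to 0.48 times in the other 4, so the genotypes did not overlap. Relative to Ms4a1 they did not overlap either, with 154 to 1339 times in IL-10 B-WT lungs, 46.0 and 39.7 times in IL-10 B-KO replicates 2 and 6, and 8.62 to 28.0 times in the other 4. Relative to Cd79a they overlapped, with 46.6 to 213 times among IL-10 B-WT and 25.6 to 49.8 times among the 3 IL-10 B-KO lungs in which Cd79a was above 0. Summed lambda constant genes were at 2.78 to 9.38 times Cd79b in IL-10 B-WT lungs and at 2.00 and 1.86 times in IL-10 B-KO replicates 2 and 6, below every IL-10 B-WT lung, with 0.063 to 0.30 times in the other 4. Relative to Ms4a1 the same sum overlapped, at 9.88 to 66.6 times in IL-10 B-WT lungs, 14.4 and 10.7 times in IL-10 B-KO replicates 2 and 6, and 2.62 to 10.4 times in the other 4. Relative to Cd79a it was at 2.43 to 12.6 times among IL-10 B-WT and 6.90 to 15.6 times among the 3 IL-10 B-KO lungs, which overlapped. Relative to Jchain, the ranges of Igkc overlapped, at 7.83 to 22.3 times Jchain among IL-10 B-WT and 12.7 to 95.9 times among IL-10 B-KO lungs. Lambda constant genes were at 0.18 to 1.92 times Jchain and at 6 to 30.1 times Jchain, ranges that did not overlap. In IL-10 B-KO replicates 1, 3, 4 and 5, Jchain was at only 0.03 to 0.11 TPM and Ms4a1 at 0.08 to 0.13 TPM. Cd79a was at 0.05 TPM in IL-10 B-KO replicate 4. Ratios to these genes in those lungs rest on values near 0, given to 2 decimals, and are uncertain. What part the amount of B cells or plasma cells had in the kappa and lambda levels was not tested.

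**Figure D4:**
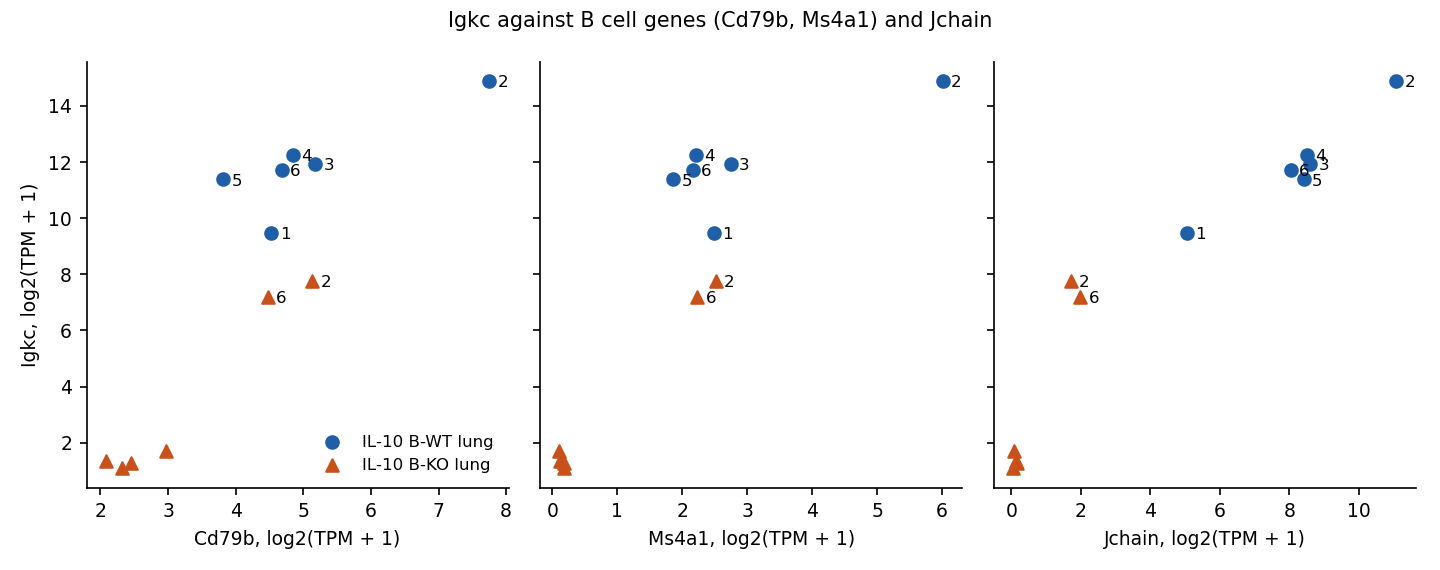
Igkc against Cd79b, Ms4a1 and Jchain in each lung, all as log2(TPM + 1), with replicate numbers beside the points (the unnumbered triangles are IL-10 B-KO replicates 1, 3, 4 and 5). IL-10 B-KO replicates 2 and 6 reach the IL-10 B-WT range of Cd79b and Ms4a1 but lie below every IL-10 B-WT lung for Igkc and for Jchain, at 2.26 and 2.96 TPM.

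Of 11 plasma cell markers, 10 were tested, 1 was called lower and none higher, beside 0.469% and 0.0264% of all genes tested. The 1 was Mzb1, a chaperone of antibody assembly (log2 difference -3.57, limma adjusted p = 0.0195). It was at 6.42 to 149 TPM in IL-10 B-WT and 0.51 to 3.68 TPM in IL-10 B-KO lungs. Mzb1 did not reach 1 TPM in 6 IL-10 B-KO lungs, so it too was tested through its IL-10 B-WT lungs. Summed over the list, levels were 181 to 744 TPM for IL-10 B-WT and 258 to 423 TPM for IL-10 B-KO lungs, and the median log2 difference was -0.19. That sum includes Xbp1, at 103 to 220 TPM and 111 to 188 TPM, and Sdc1, so it says little about less abundant markers. Of the 10 tested, 3 (Mzb1, Irf4 and Derl3) had every IL-10 B-KO lung below every IL-10 B-WT lung, as for 0.924% of genes tested. Derl3 was not called (limma adjusted p = 0.103), at 5.68 to 48.0 TPM and 0.99 to 3.16 TPM. Sdc1, which lung epithelium also makes, had a log2 difference of 0.83 (limma adjusted p = 0.351), and Prdm1, the plasma cell factor Blimp-1, of -0.35 (limma adjusted p = 0.422). Tnfrsf17, the plasma cell receptor BCMA, was too low to be tested, at 0.48 to 7.45 TPM in IL-10 B-WT and 0 to 0.27 TPM in IL-10 B-KO lungs.

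None of the tested genes that act on the light chain loci was called. Of all genes tested, only 0.469% were called lower and 0.0264% higher, so no call in lists this short says little. Of 15 transcription factors that bind or support the light chain enhancers, all were tested and none passed in either direction (median log2 difference -0.16). Pax5, the B lineage factor, had a log2 difference of -2.87 (limma adjusted p = 0.0731), Ebf1, which acts with it, of -1.27 (0.357), Tcf3, encoding E2A, of -0.16 (0.714), and Irf4, needed for light chain transcription and plasma cells, of -1.15 (0.341). Pax5 was at 4.64 to 42.2 TPM in IL-10 B-WT and 0 to 7.94 TPM in IL-10 B-KO lungs, ranges that overlapped. The B cell coactivator Pou2af1 had a log2 difference of -2.74 (limma adjusted p = 0.122). For 1 of the 15, Irf4, every IL-10 B-KO lung lay below every IL-10 B-WT lung, as for 0.924% of genes tested. Of 11 genes of light chain rearrangement, 9 were tested and none was called (median 0.21). The recombinase genes Rag1 and Rag2, which cut the loci, reached at most 0.03 and 0.04 TPM. Of 4 surrogate light chain genes, which stand in for the light chain in precursor B cells, 2 were tested and none was called, Vpreb1 at -0.40 and Vpreb3 at -1.15 on the log2 scale.

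Of 11 endoplasmic reticulum chaperones that fold antibodies and other secreted proteins, among them Hspa5 (BiP, log2 difference 0.36, limma adjusted p = 0.639), all were tested and none passed (median 0.34). Of 5 germinal centre and proliferation genes, 4 were tested and none was called (median 0.71). None of the tested T cell (10 of 10, median 0.05), NK cell (5 of 5, 0.29), neutrophil (6 of 6, 1.72), macrophage (8 of 8, 1.42), lymph node stroma and lymphatic (5 of 8, -0.13) or lung tissue (8 of 8, 0.17) markers passed. Of all genes tested, 0.469% passed as lower and 0.0264% as higher, so no call in these short lists does not mean no difference. All 5 NK cell, 6 neutrophil and 8 macrophage markers had log2 differences above 0, as had 9580 of the 15148 genes tested. Summed neutrophil markers were at 272 to 2457 TPM in IL-10 B-WT and 1035 to 7438 TPM in IL-10 B-KO lungs.

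The genes whose levels followed Igkc most closely over the 12 lungs were other B lineage genes. By Pearson correlation of log2(TPM + 1), the 5 closest outside the immunoglobulin loci were Cd79a (r = 0.97), Jchain (0.95), Fcmr, the IgM receptor (0.95), Pax5 (0.95) and Mzb1 (0.95). Inside the loci they were Igkv3-4 (0.99), Igkv10-96 (0.98), Igha (0.98), Igkv3-2 (0.96) and Ighd (0.95). Outside the loci, genes most like Iglc2 included Fcmr (0.97), Cd79a (0.95), Pax5 (0.94) and Pou2af1, a B cell coactivator (0.94), and the closest inside them were Ighd (0.97), Igkv3-4 (0.97), Igkv10-96 (0.94), Igkv3-2 (0.94) and Igha (0.93). These values describe points that fall into separate levels by genotype and, in IL-10 B-KO, by lung, and each library shares its scaling across genes.

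Over the 6 IL-10 B-WT lungs alone, the lists changed. The genes then closest to Igkc included Add3 (0.99), Nrg2 (0.98), Zfp58 (0.98) and Asb2 (0.98), and inside the loci they were Igkv8-21 (0.98), Igha (0.97), Igkv1-135 (0.96), Igkv6-17 (0.96) and Ighg2b (0.95). Iglc2 was closest to Zeb1 (0.99), Adam22 (0.99), Ankrd44 (0.99), Rsad1 (0.97) and Dnajc27 (0.97), and inside the loci to Igkv8-21 (0.91), Ighv1-19 (0.90), Ighv1-53 (0.90), Igkv6-17 (0.90) and Igkv8-24 (0.89). With only 6 lungs, 1 of them far above the rest, many genes reach such values. Within the set, Igkc and Iglc2 had r = 0.98 over 12 lungs and 0.93 over the 6, and Igkc and Iglc3 0.95 and 0.67.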

How the data were processed

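Total lung RNA from 12 mice was sequenced, and the authors deposited 1 table of TPM per gene, estimated with RSEM and given to 2 decimals. The submitters' processing notes also name fastp, HISAT and GRCm38.p5, with no versions. Mapped counts and depth per library are not given in the sources used here, so intervals from counts could not be made. Of 55414 gene identifiers, 52081 matched GENCODE M21. Genes with at least 1 TPM in at least 6 libraries (15148) were tested on log2(TPM + 1) with limma 3.58.1 (R 4.3.3, empirical Bayes with trend, genotype as the only term) with Benjamini-Hochberg adjustment. A gene was called where adjusted p did not exceed 0.05 and the log2 difference was at least 1 in size. Single genes and ratios within a lung were tested by two-sided exact permutation. No set test was run. Alternatives covered the pseudocount, filter, scaling, library weights, replicate block and leaving out lungs. Named genes were all members, the called genes and up to 4 more of each list, and the 5 genes most correlated with Igkc and with Iglc2 inside and outside the immunoglobulin loci. Glycam1, Xbp1, Derl3 and Cd72 were named after their values were seen. Values of 2 genes that the rule names are not reported here. Members and lists were chosen with earlier results of these data known. Sequence pairs were aligned with Biopython 1.88.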

Additional observations from a re-analysis of the deposited data

Results flagged for a closer look

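Within each genotype, 17 sets of 6 lungs were examined for a lung far from the other 5, and 7 had one. Chance gives about 1 in 20 for normally distributed values, and its rate for levels as skewed as these is not known. These sets share lungs and are not independent. In IL-10 B-WT replicate 2, 4 members stood above the other 5 IL-10 B-WT lungs. Igkc was at 30371 TPM, next to 4874 TPM in the nearest lung, and Iglc2 was at 473 TPM, next to 184 TPM. Iglv2 was at 351 TPM, next to 44.1 TPM, and Iglv3 was at 72.7 TPM, next to 14.5 TPM. The lymph node gene Glycam1 was also high in that lung, and its part in the light chain levels was not tested. In IL-10 B-KO replicate 2, Iglc1 was at 6.43 TPM, next to 0.76 TPM. The kappa share of light chain constant TPM in IL-10 B-KO replicate 3 was 50.9%, next to 74.2% in the nearest lung. The lambda variable to constant ratio in IL-10 B-KO replicate 1 was 1.60, next to 0.66.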

How the results depend on the processing

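The difference in kappa share (IL-10 B-KO minus IL-10 B-WT) was -22.2 percentage points with lambda counted by constant genes and 1.01 points with Iglv1, Iglv2 and Iglv3 in their place, and lay between -24.3 and -17.7 points when 1 lung was left out. The ratio of Igkc to Iglc3 lost its call with 0.01 TPM added (difference -2.26, adjusted exact p = 0.0714), and the ratios to Iglc1 and Iglc2 kept theirs under every alternative run. Of the members, 4 were called lower, against 0 when all 31629 genes above 0 were tested, 2 after quantile normalization, and 2 to 6 when 1 lung was left out. Over all genes tested, 71 were called lower and 4 higher, against 5 and 1 without the filter, 237 and 81 with library weights, 34 and 2 after centring on library medians, 35 lower after quantile normalization, and 17 to 245 lower and 1 to 359 higher when 1 lung was left out. Centring moved the median of all genes from 0.10 to -0.01, every tested member stayed lower, Iglc2 lost its call (adjusted p = 0.0744), and 3 members were called. With library weights, 6 were called. The mean log2 difference of Iglc1 was -0.13 and turned to 0.029 with 0.1 TPM added, lay between -0.57 and 0.24 when 1 lung was left out, and was above 0 with IL-10 B-WT replicate 1 (0.24) or 6 (0.16), or IL-10 B-KO replicate 1, 4 or 5 (0.009 each), left out. Same-numbered lungs did not deviate together (correlations -0.29 to 0.05, and 0 of 6 lungs correlated best with its own number). With a replicate block, 43 genes were called lower and 2 higher, Iglc3 gained a call (adjusted p = 0.0372) and Iglv2 lost its call (0.0626). Leaving out IL-10 B-KO replicates 2 and 6, chosen after seeing the data, gave 46 genes lower. Some alternatives also changed the number of genes or lungs entering the fit. What caused the changes in the results was not tested.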
